A study of Mus musculus with 16 samples.

Results

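The subunits of the transcription factor NF-κB and a set of its inhibitors were examined in CD11b+ cells of the mouse brain, as 10 genes taken by name from a table of 24421 genes. The 5 subunit genes were Nfkb1, Nfkb2, Rel, Rela, and Relb, and the 5 inhibitor genes were Nfkbia, Nfkbie, Nfkbiz, Tnfaip3, and Bcl3. RNA-Seq was performed on 16 libraries from female C57BL/6J mice (sex per the methods), all of which entered the trial at weaning. CON mice (n = 4) ate a standard diet, MAL mice (n = 5) ate a malnourished diet that matched it in calories but was low in protein and fat, and MAL-BG mice (n = 7) ate the MAL diet and were also gavaged 3 times over 5 days with a mix of E. coli and Bacteroidales. CON and MAL mice were gavaged with PBS over the same days, and all mice stayed on their diets for about a month. No group on the standard diet with the bacteria was among these libraries, so the gavage was compared within the malnourished diet only. The cells were enriched with magnetic beads after enzymatic digestion of the brain, and the labels call the tissue cortical while the methods describe whole cerebra. CD11b is a surface integrin of microglia that is also carried by other myeloid cells.

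NF-κB proteins form dimers that bind κB sites in DNA. Rela, Rel, and Relb encode subunits with a transactivation domain, and Nfkb1 and Nfkb2 encode the precursors of p50 and p52. In resting cells, dimers are held in the cytoplasm by IκB proteins such as those encoded by Nfkbia (IκBα) and Nfkbie (IκBε), and an IκB kinase complex marks these for degradation when ligands such as TNF or IL-1 bind their receptors. Several genes of the system are themselves known targets of NF-κB, among them Nfkbia, Nfkbie, Tnfaip3 (A20, a ubiquitin-editing enzyme that dampens signalling upstream of the kinase complex), and Rel. Nfkbiz (IκBζ) and Bcl3 encode nuclear members of the IκB family that act on NF-κB bound to DNA and can raise or lower transcription, depending on the gene. Microglia use this pathway to transcribe cytokines and chemokines.

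The promoters of 4 genes with lower transcript levels in MAL-BG cells are shown with that of Rela, which did not pass the test. They let a reader see where the κB consensus lies in these genes. Nfkb2 and Bcl3, also lower and with promoters at hand, are not shown, and Bcl3 held no match before its start. Each line holds the 130 bases before the RefSeq transcript start, 5′ to 3′ on the strand of the gene (GRCm38.p6), and capitals mark matches to the κB consensus on either strand, overlapping ones included.
Nfkbia: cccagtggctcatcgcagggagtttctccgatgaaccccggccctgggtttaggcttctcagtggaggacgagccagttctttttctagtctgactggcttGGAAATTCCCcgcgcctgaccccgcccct
Tnfaip3: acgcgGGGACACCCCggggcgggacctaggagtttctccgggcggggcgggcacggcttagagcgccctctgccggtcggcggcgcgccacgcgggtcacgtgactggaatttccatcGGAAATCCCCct
Rel: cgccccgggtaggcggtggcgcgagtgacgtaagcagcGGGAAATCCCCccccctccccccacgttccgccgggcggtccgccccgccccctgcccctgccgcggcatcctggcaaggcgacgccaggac
Nfkbie: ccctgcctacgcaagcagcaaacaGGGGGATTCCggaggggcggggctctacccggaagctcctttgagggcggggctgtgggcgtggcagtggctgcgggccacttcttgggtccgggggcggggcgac
Rela: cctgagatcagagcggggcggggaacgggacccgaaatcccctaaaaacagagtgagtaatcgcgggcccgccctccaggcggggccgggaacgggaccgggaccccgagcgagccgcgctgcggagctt
The Nfkbia window lies at chr12:55492648-55492777 (minus strand), and its match begins 29 bases before the start. The Tnfaip3 window (chr10:19015411-19015540, minus strand) holds a match that begins 125 bases before the start and another that begins 12 bases before it, while a second Tnfaip3 promoter in the table holds none in its 300 bases. The Rel window (chr11:23770970-23771099, minus strand) holds overlapping matches that begin 92 and 91 bases before the start. In the Nfkbie window (chr17:45555570-45555699, plus strand), a match begins 106 bases before the start. The Rela window (chr19:5637411-5637540, plus strand) holds no match. RefSeq promoters of 300 bases (250 before and 50 after the start) were at hand for 7 of the 10 genes, and not for Nfkb1, Relb, or Nfkbiz. A match was present in at least 1 promoter of 6 of these 7 genes (Nfkb2, Rel, Nfkbia, Nfkbie, Tnfaip3, and Bcl3, where it lies after the start). Of the genes that did not pass the test, only Rela had a promoter at hand. Matches can therefore not be compared between genes that passed and genes that did not. Of all 32851 promoters of the table, 8.459% held a match, as did 9.55% of genes in at least 1 promoter. A match describes letters and is not a measured binding site.

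The libraries held 10312703 to 13461574 counts in CON mice, 10864121 to 12819982 in MAL mice, and 14191791 to 18705202 in MAL-BG mice. Microglial markers were high in every library, with a summed level of 16800 to 27500 CPM (counts scaled for library size) in CON, 17470 to 29780 in MAL, and 36850 to 50300 in MAL-BG mice, and 6 of 10 rose in MAL-BG mice in both comparisons. Neutrophil markers summed to 481 to 1216 CPM in CON, 518 to 1081 in MAL, and 571 to 13330 in MAL-BG mice, the highest in MAL-BG replicate 5. Of 9 neutrophil markers, 8 rose in both comparisons, also without MAL-BG replicates 3 and 5. Csf3r held most counts of this list in CON (30429) and MAL mice (36320), where S100a9 came next (2267 and 3862). In MAL-BG mice, S100a9 held the most counts (101565), beside 51150 for Csf3r. Markers of choroid plexus (8 of 8) and neurons (8 of 8) fell in MAL-BG mice against CON, with summed choroid plexus levels of 13750 to 53440 CPM in CON, 6373 to 42000 in MAL, and 1755 to 16340 in MAL-BG mice. The median choroid plexus sum was 30260 CPM in CON and 30400 in MAL mice, above median microglial sums of 20450 and 21820 CPM. In MAL-BG mice these medians were 5087 and 44350 CPM. Of 7 astrocyte markers, 4 fell in each comparison. Of 8 endothelial markers, 3 rose against CON and 4 against MAL mice. Genes of the early response to cell handling and stimulation, such as Fos and Egr1, summed to 16120 to 31980 CPM in CON, 17430 to 37690 in MAL, and 7016 to 20350 in MAL-BG mice. Of 12 such genes, 6 fell and 1 rose against CON, and 8 fell and 2 rose against MAL. Hspa1a and Hspa1b, part of the same sum, went the other way. Over all libraries of a group they held 10890 and 9627 counts in CON (n = 4), 12645 and 10966 in MAL (n = 5), and 50436 and 54022 in MAL-BG mice (n = 7). These values moved with the groups. A fit with the early-response sum as a covariate is given where it changed the call of any of the 10 genes, and the part of the other markers in the results was not tested.

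All 10 genes passed the filter on low counts (14565 genes). A gene was called with an adjusted p under 0.05 in the quasi-likelihood test of edgeR and an absolute log2 fold change above 0.58. Against CON mice, 7 of the 10 genes were lower in MAL-BG mice and none was higher, beside 21.7% of all genes tested that were called lower and 11.4% called higher. Against MAL mice, the same 7 genes were lower and none was higher, beside 20.2% and 10.2% of all genes. The 7 genes were 2 subunits (Rel and Nfkb2) and all 5 genes listed as inhibitors (Nfkbia, Nfkbie, Nfkbiz, Tnfaip3, and Bcl3). The products of Nfkbiz and Bcl3 can also raise transcription. Rela, Relb, and Nfkb1 were called in neither direction. All MAL-BG libraries lay below all CON libraries for these 7 genes (11.1% of all genes tested) and below all MAL libraries for 6 of 10 genes (8.95%). The same 6 lay below all 9 CON and MAL libraries (6.36%). The median log2 fold change of the 10 genes was -1.46 against CON and -1.07 against MAL, where the medians of all genes were -0.04 and -0.03. Both comparisons share the MAL-BG libraries, and the 10 genes were chosen with earlier results of these data known. In RNA from a mixed population, fewer cells that express a gene and less of its RNA per cell cannot be told apart.

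**Figure D1:**
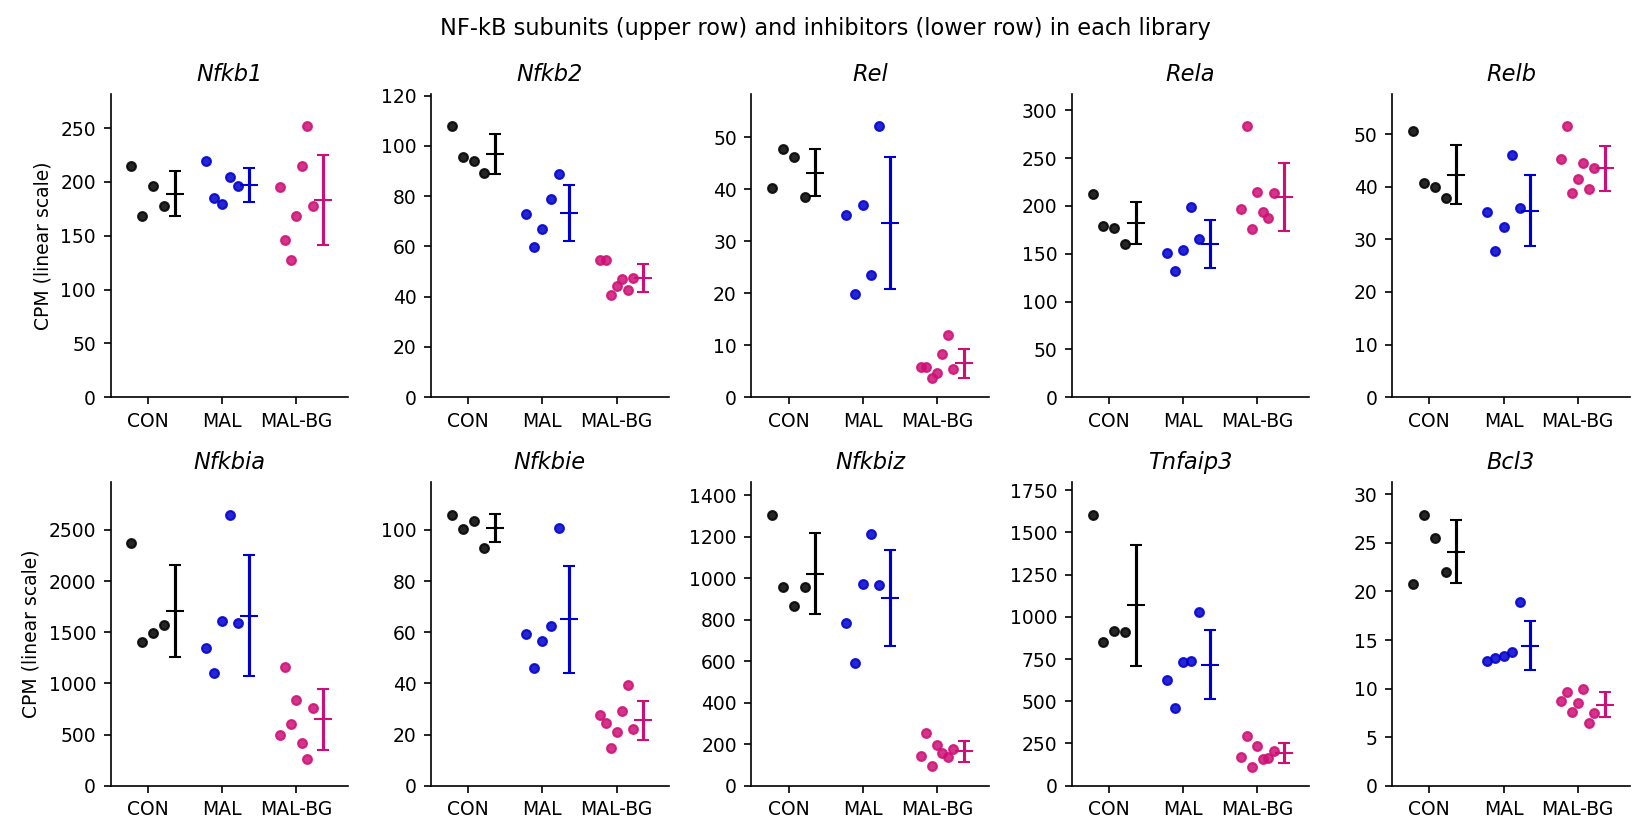
Level of each gene in CPM (linear axes from 0) in each library (points) of the CON (n = 4), MAL (n = 5), and MAL-BG (n = 7) groups, with the mean and SD beside them. All MAL-BG points lie below all others for Nfkb2, Rel, Nfkbie, Nfkbiz, Tnfaip3, and Bcl3, while the groups overlap for Nfkb1, Rela, and Relb, and for Nfkbia the MAL-BG points lie below all CON points but overlap the MAL points.

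Nfkbia was the most abundant of the 10 genes per kilobase of exon in each group, with 1061 ± 279 CPM per kb in CON (SD, n = 4), 1031 ± 368 in MAL (n = 5), and 402 ± 185 in MAL-BG mice (n = 7). Nfkbia (chr12:55489409-55492647, minus strand) measured 2374, 1400, 1492, and 1569 CPM in CON mice and 1349, 1097, 1613, 2650, and 1592 CPM in MAL mice. In MAL-BG mice it ranged from 261 to 1158 CPM with a median of 602. The MAL-BG libraries lay below every CON library, and MAL-BG replicate 2 (1158 CPM) lay above MAL replicate 2 (1097 CPM). Nfkbia was 2.64-fold lower than in CON mice (log2 fold change -1.40 ± 0.31 SE, adjusted p = 0.00198) and 2.57-fold lower than in MAL mice (-1.36 ± 0.30, adjusted p = 0.0018). Even so, it stood at the 99.5th percentile of 14023 genes with a known length in MAL-BG mice, against the 99.8th in CON and MAL mice. With the summed level of early-response genes as a covariate, the difference from MAL mice no longer passed the test (-0.75, adjusted p = 0.0744, beside adjusted p between 7.52e-05 and 0.0744 over 29 alternatives).

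Nfkbie, the IκBε gene (chr17:45555700-45563169, plus strand), measured 106, 100.2, 103.3, and 93.1 CPM in CON mice. The MAL libraries measured 59.3, 46.2, 56.5, 62.5, and 100.9 CPM, and MAL-BG libraries ranged from 14.9 to 39.3 CPM with a median of 24.6. No MAL-BG library reached the lowest MAL library, and MAL replicate 5 alone reached the CON range. Nfkbie was 3.94-fold lower in MAL-BG than in CON mice (log2 fold change -1.98 ± 0.21 SE, adjusted p = 9.57e-06) and 2.55-fold lower than in MAL mice (-1.35 ± 0.20, adjusted p = 1.20e-04).

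Tnfaip3, the A20 gene (chr10:19000910-19015410, minus strand), measured 1606, 849.5, 913.4, and 910.0 CPM in CON mice and 627.0, 462.0, 734.9, 738.4, and 1026 CPM in MAL mice. The MAL-BG libraries ranged from 110.0 to 292.5 CPM with a median of 171.8. The highest MAL-BG library thus lay below the lowest MAL library, and CON replicate 1 stood far above the other CON libraries. Tnfaip3 was 5.61-fold lower than in CON mice (log2 fold change -2.49 ± 0.25 SE, adjusted p = 5.75e-06) and 3.77-fold lower than in MAL mice (-1.91 ± 0.24, adjusted p = 2.71e-05).

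Nfkbiz, which encodes the nuclear IκB family member IκBζ (chr16:55811375-55838954, minus strand), had the largest log2 fold changes of the genes listed as inhibitors in both comparisons with MAL-BG mice. It measured 1307, 957.4, 863.9, and 959.1 CPM in CON mice and 785.2, 589.1, 970.5, 1212, and 966.8 CPM in MAL mice, ranges that overlap. In MAL-BG mice it ranged from 93.3 to 254.1 CPM with a median of 159.7, below every other library. Nfkbiz was 6.15-fold lower than in CON mice (log2 fold change -2.62 ± 0.22 SE, adjusted p = 2.39e-06) and 5.45-fold lower than in MAL mice (-2.45 ± 0.21, adjusted p = 6.38e-06). Its percentile per kilobase among 14023 genes was 98.9 in both CON and MAL mice and 88.8 in MAL-BG mice.

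Bcl3, the other nuclear IκB gene (chr7:19808462-19822824, minus strand), had the lowest level per kilobase of the inhibitors in each group. In CON mice it measured 20.81, 27.92, 25.54, and 22.03 CPM. MAL libraries measured 12.9, 13.1, 13.3, 13.8, and 18.9 CPM, and MAL-BG libraries ranged from 6.48 to 9.98 CPM with a median of 8.53. The 3 groups did not overlap, with MAL between CON and MAL-BG. Bcl3 was 2.88-fold lower in MAL-BG than in CON mice (log2 fold change -1.53 ± 0.15 SE, adjusted p = 4.67e-06) and 1.72-fold lower than in MAL mice (-0.79 ± 0.14, adjusted p = 4.57e-04). An antisense gene, Gm16175, shares 161 exon bases with Bcl3 on the opposite strand, and the strand setting of the counting is not given in the sources used here.

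Of the subunits, Rel showed the largest difference. Rel encodes c-Rel (chr11:23736847-23770969, minus strand), and it measured 40.3, 47.8, 46.2, and 38.6 CPM in CON mice and 35.0, 19.8, 36.9, 23.5, and 52.2 CPM in MAL mice. MAL-BG libraries ranged from 3.72 to 12 CPM with a median of 5.75, all below the lowest MAL library. These rest on 54 to 202 counts per library, against 510 to 586 in CON mice. Rel was 6.59-fold lower than in CON mice (log2 fold change -2.72 ± 0.28 SE, adjusted p = 6.32e-06) and 5.10-fold lower than in MAL mice (-2.35 ± 0.27, adjusted p = 1.50e-05). It was the least abundant of the 10 genes per kilobase in each group, at 5.79 ± 0.60 CPM per kb in CON (SD, n = 4), 4.48 ± 1.71 in MAL (n = 5), and 0.875 ± 0.374 in MAL-BG mice (n = 7).

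Nfkb2 encodes p100, the precursor of p52 in the non-canonical pathway (chr19:46300994-46312400, plus strand). It measured 107.9, 95.6, 93.9, and 89.1 CPM in CON mice, 72.9, 59.7, 66.9, 79.0, and 88.7 CPM in MAL mice, and 40.8 to 54.7 CPM with a median of 47.2 in MAL-BG mice. The groups did not overlap, and MAL again lay between the others. Nfkb2 was 2.04-fold lower in MAL-BG than in CON mice (log2 fold change -1.03 ± 0.11 SE, adjusted p = 1.07e-05) and 1.55-fold lower than in MAL mice (-0.63 ± 0.11, adjusted p = 2.89e-04). The call against MAL mice was lost in 7 of 29 alternatives, among them those without MAL replicate 5 (-0.55), MAL-BG replicate 4 (-0.57), or MAL-BG replicate 7 (-0.58), where the fold change fell short of the threshold. With the early-response sum as a covariate it was -0.50 and not called. Nfkb2 shares 299 exon bases with Psd and 531 with AC114539.1, both on the opposite strand.

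Rela, which encodes p65 (chr19:5637442-5648134, plus strand), was called in neither comparison with MAL-BG mice, like Relb and Nfkb1. It measured 212.1, 179.0, 177.2, and 159.9 CPM in CON mice, 150.6, 131.7, 153.6, 199.1, and 165.3 CPM in MAL mice, and 176.0 to 283.6 CPM with a median of 196.6 in MAL-BG mice. The ranges of all groups overlapped. The log2 fold change was 0.20 ± 0.14 (SE) against CON mice (adjusted p = 0.242) and 0.39 ± 0.13 against MAL mice (adjusted p = 0.0214), the latter below the fold threshold. With the early-response sum as a covariate, Rela was called higher than in MAL mice (0.71).

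Relb, the partner of p52 in the non-canonical pathway (chr7:19606217-19629438, minus strand), measured 50.6, 40.7, 40.0, and 37.9 CPM in CON mice and 35.2, 27.8, 32.4, 46.1, and 35.99 CPM in MAL mice. MAL-BG libraries ranged from 38.8 to 51.6 CPM with a median of 43.6, within the span of the others but for 1 library. The log2 fold change was 0.04 ± 0.13 (SE) against CON mice (adjusted p = 0.818) and 0.30 ± 0.12 against MAL mice (adjusted p = 0.0572), where it was called higher with the early-response sum as a covariate (0.59). Its direction against CON mice turned without CON replicate 4 (-0.008).

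Nfkb1, the precursor gene of p50 (chr3:135584655-135691969, minus strand), measured 215.3, 168.0, 196.1, and 177.5 CPM in CON mice and 219.5, 185.4, 179.7, 204.2, and 195.9 CPM in MAL mice. MAL-BG libraries ranged from 127.7 to 252.0 CPM with a median of 178.1, a span wider than that of both other groups together. The log2 fold change was -0.05 ± 0.15 (SE) against CON mice (adjusted p = 0.824) and -0.10 ± 0.14 against MAL mice (adjusted p = 0.569). When gene length and GC content were modelled as offsets, its direction turned in both comparisons, to 0.26 and 0.20. A p above the threshold does not show that the groups were alike.

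**Figure D2:**
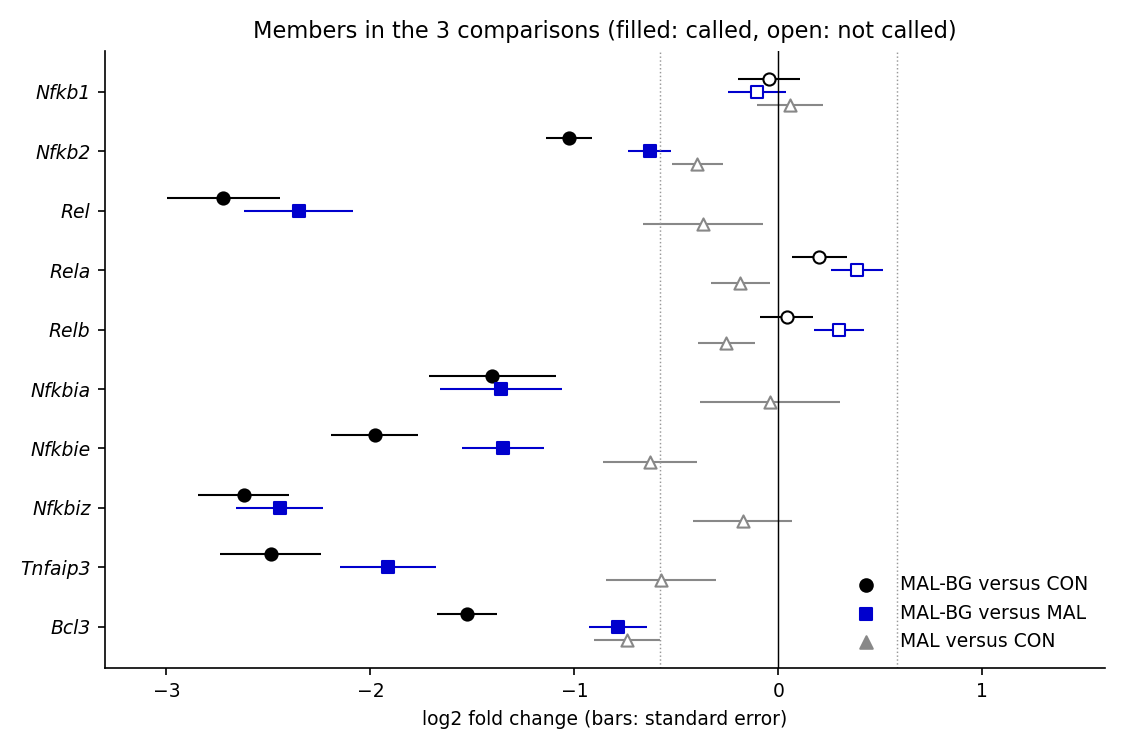
Log2 fold change of each gene (x axis) with its standard error in the comparisons of MAL-BG with CON (circles), MAL-BG with MAL (squares), and MAL with CON (triangles); filled symbols passed both thresholds and dotted lines mark a log2 fold change of 0.58 in either direction. The 7 lower genes lie between -2.72 and -1.03 against CON and between -2.45 and -0.63 against MAL, while Nfkb1, Rela, and Relb lie between -0.10 and 0.39 in these comparisons.

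The diet alone was examined by comparing MAL with CON mice. None of the 10 genes was called by edgeR (adjusted p = 0.9995 for each), as was no other gene of the 14565 (0%), and DESeq2 called none of the 10 either. At an unadjusted p under 0.05, 4 of the 10 genes were lower in MAL mice, beside 1.46% of all genes in either direction. These were Bcl3 (log2 fold change -0.74 ± 0.16 SE, unadjusted p = 2.67e-04), Nfkb2 (-0.40 ± 0.12, unadjusted p = 0.00499), Nfkbie (-0.63 ± 0.23, unadjusted p = 0.0148), and Tnfaip3 (-0.58 ± 0.27, unadjusted p = 0.047). All MAL libraries lay below all CON libraries for Bcl3 and Nfkb2 (2 of 10 genes), beside 0.302% of all genes. None of these differences held after correction, and the adjusted p of Bcl3 ranged from 0.0703 (DESeq2) to 1.0 over 29 alternatives. Rel (-0.37 ± 0.30), Nfkbiz (-0.18 ± 0.24), and Nfkbia (-0.04 ± 0.34) did not pass an unadjusted p under 0.05 either.

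Ratios of 2 genes within a library do not depend on how libraries are scaled, and they were formed from levels per kilobase, with no test. The ratio of Nfkbia to Rela, an inhibitor over the subunit that it holds, had a median of 17.3 in CON (14.9 to 21.4), 18.4 in MAL (15.9 to 25.4), and 6.52 in MAL-BG mice (2.66 to 7.79). Every MAL-BG library thus held less Nfkbia RNA per Rela RNA than every other library. The ratio of Rel to Rela had a median of 0.103 in CON (0.0782 to 0.1098), 0.0956 in MAL (0.0486 to 0.130), and 0.0106 in MAL-BG mice (0.00834 to 0.0264), again with no overlap. The ratio of Nfkb2 to Nfkb1 had medians of 1.32 in CON libraries, 0.979 in MAL libraries, and 0.703 in MAL-BG libraries, and its MAL (0.847 to 1.19) and MAL-BG (0.446 to 0.981) ranges overlapped. Both ranges lay below that of CON libraries (1.261 to 1.498). The ratio of Relb to Rela stayed within a narrow span, with medians of 0.184, 0.172, and 0.167. The ratio of Nfkbie to Nfkbia had medians of 0.0339, 0.0223, and 0.0156, and in MAL-BG mice it spread from 0.0112 to 0.0796, past both ends of the other groups.

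**Figure D3:**
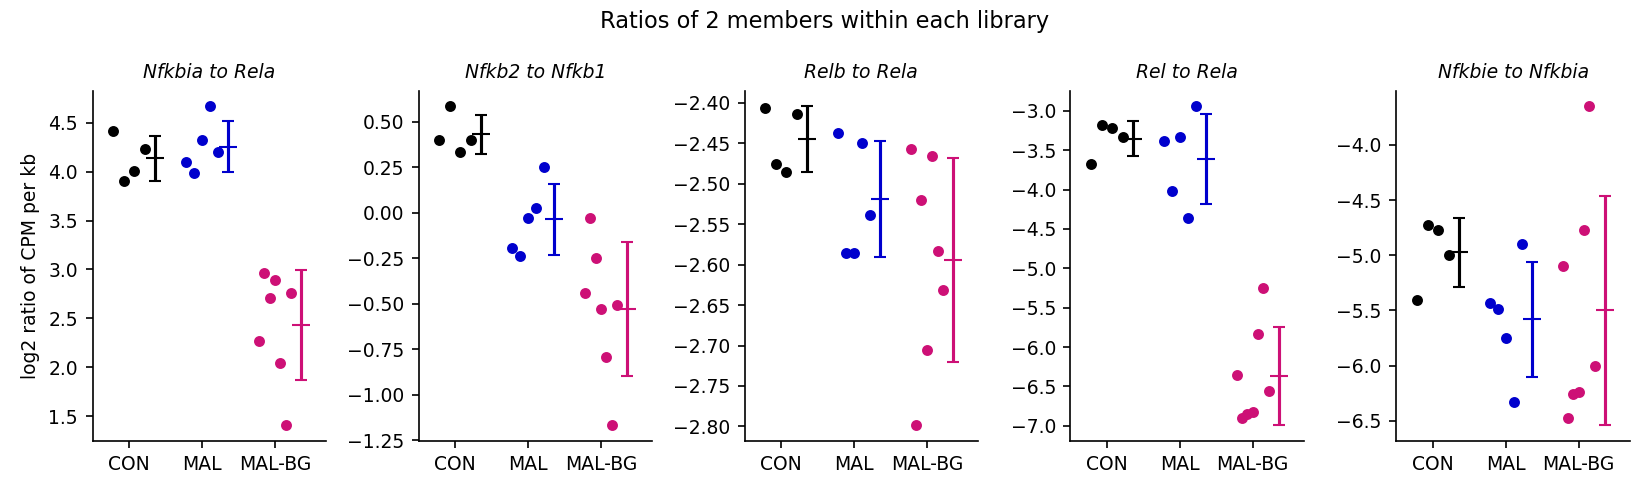
Log2 ratio of the CPM per kb of 2 genes within each library (points), with the mean and SD of each group; the axes differ between panels and do not start at 0. MAL-BG libraries lie below all others for Nfkbia to Rela (1.41 to 2.96) and for Rel to Rela (-6.91 to -5.25). For Nfkb2 to Nfkb1 (-1.165 to -0.028) they lie below all CON libraries and overlap with MAL libraries, which also lie below all CON libraries. For the remaining ratios, MAL-BG libraries overlap with both other groups.

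The 10 genes differed in which MAL-BG library was highest. MAL-BG replicate 2 held the highest level of Rela, Relb, Nfkbia, Nfkbiz, and Tnfaip3 (5 of 10 genes), while MAL-BG replicate 6 held the highest level of Nfkb1, Rel, and Nfkbie (3 of 10) and the lowest of Nfkbia and Bcl3. MAL-BG replicate 3 was lowest for the other 8 genes, and it also held the lowest microglial (36850 CPM), neutrophil (571 CPM), and early-response (7016 CPM) sums and the highest choroid plexus sum (16340 CPM) of its group. In CON mice, replicate 1 was highest for 8 of 10 genes and also had the highest early-response sum (31980 CPM). Without MAL-BG replicates 3 and 5 together, the 7 genes stayed lower in both comparisons. Each gene was also related to the early-response and neutrophil sums, separately in the 9 CON and MAL libraries and the 7 MAL-BG libraries (40 relations in all), and none had an adjusted p under 0.05. The strongest was that of Nfkbiz with the early-response sum in MAL-BG mice (Pearson's r = 0.949, exact permutation p = 0.00377, adjusted p = 0.151, and Spearman's rho = 0.857, exact permutation p = 0.0238, adjusted p = 0.533). It rests on MAL-BG replicates 2 and 3, since r was 0.562 without them. The relations with the neutrophil sum in CON and MAL libraries mostly reflect Csf3r, which held most counts of that sum.

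The genes that varied most like each member across the 16 libraries, after the group means were removed, are given as a description, since libraries also share depth and cell makeup. Nfkbiz varied most like Fosb (r = 0.927), Nfkbid (0.926), and Atf3 (0.916), and Tnfaip3 like Cd83 (0.92), Per1 (0.903), and Nuak2 (0.896). Nfkbie varied most like Plek (0.946), Litaf (0.942), and Il1a (0.896), and Rel like Ago3 (0.901), Lnpep (0.897), and Elk4 (0.892). For Nfkbia these were Nrbp1 (0.963), Gm6402 (0.961), and Dcaf15 (0.947), and for Bcl3 they were Iscu (0.825), Trank1 (0.813), and Map2k3 (0.807). Among the remaining subunits, Nfkb1 varied most like Crlf3 (0.978), Dock8 (0.969), and Heatr5a (0.965), and Nfkb2 like Slc15a3 (0.908), P2rx1 (0.828), and Mybph (0.822). Rela varied most like Epha2 (0.949), Neurl3 (0.933), and Dyrk2 (0.926), and Relb like Lyl1 (0.924), Afmid (0.922), and Plxna4os1 (0.91).

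Other genes of the pathway were read from lists by role, of which 93 of 98 genes passed the filter. Against CON mice, 27 were lower and 15 higher in MAL-BG mice, and against MAL mice, 20 were lower and 13 higher. Over all genes tested, 21.7% were lower and 11.4% higher against CON mice, and 20.2% and 10.2% against MAL mice, and the counts of each list below stand beside these shares. The ligands were split, with 3 of 7 lower and 3 higher against CON mice. The lower ones were the cytokine genes Il1a (log2 fold change -2.80 ± 0.31 SE, adjusted p = 1.08e-05), Tnf (-2.14 ± 0.30, adjusted p = 7.02e-05), and Il1b (-0.91 ± 0.28, adjusted p = 0.0153). Il1a measured 782 ± 115 CPM in CON (SD, n = 4), 428 ± 215 in MAL (n = 5), and 112 ± 40.4 in MAL-BG mice (n = 7). Tnf measured 245 ± 28.7, 169 ± 74.9, and 55.9 ± 23.4 CPM in the same order. Il1b was not called against MAL mice (-0.19 ± 0.27), and its call against CON mice was lost without CON replicate 4 (-0.79) and with the early-response sum as a covariate (-0.75). Ltb, which encodes lymphotoxin β, a ligand of the non-canonical pathway, rose in both comparisons (1.40 ± 0.28 against CON and 1.25 ± 0.25 against MAL). Lymphocyte markers summed to 22.2 to 37.5 CPM in CON, 25.8 to 47.95 in MAL, and 44.6 to 82.1 in MAL-BG mice. Of 6 such markers, 3 rose in each comparison, and 1 fell against MAL mice. The part of lymphocytes in the rise of Ltb was not tested.

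Of 10 receptors, 2 rose and 1 fell against CON mice, beside 11.4% and 21.7% of all genes. Tnfrsf12a, the receptor of the ligand TWEAK, fell (log2 fold change -1.62 ± 0.17 SE), while the TNF receptor gene Tnfrsf1b (0.74 ± 0.14) and the lymphotoxin β receptor gene Ltbr (0.66 ± 0.12) rose. Against MAL mice, Tnfrsf12a was lower (-1.28 ± 0.17), Ltbr was higher (0.60 ± 0.11), and Tnfrsf1b measured 0.52, below the fold threshold. The call of Ltbr against MAL mice was lost without MAL replicate 5 (0.55), with upper-quartile scaling (0.58), and with length and GC offsets (0.51). Of 23 adaptors, ubiquitin ligases, and kinases close to the receptors, 2 rose and 2 fell against CON mice, and 1 rose and 2 fell against MAL mice, shares below those of all genes. Traf1 (-1.28 ± 0.25) and Birc3 (-0.91 ± 0.13), both adaptors or ligases of TNF receptor complexes, fell against CON mice, and Traf5 rose (0.92 ± 0.22). Against MAL mice, Traf1 was lower (-1.22 ± 0.24), Traf5 was higher (0.68 ± 0.20), and Birc3 was not called (-0.54).

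Of 7 kinases in a separate list around the IκB kinase complex, only Map3k8 (Tpl2, a MAP kinase kinase kinase that is held by p105) was called, with a log2 fold change of -2.42 ± 0.22 (SE) against CON mice (adjusted p = 3.20e-06) and -1.99 ± 0.21 against MAL mice (adjusted p = 8.35e-06). It measured 78.9 ± 17.4 CPM in CON (SD, n = 4), 58.9 ± 15.4 in MAL (n = 5), and 14.8 ± 4.20 in MAL-BG mice (n = 7). The genes of the IκB kinase complex were not called against CON mice, with 0.12 ± 0.13 for Chuk, -0.09 ± 0.12 for Ikbkb, and -0.10 ± 0.11 for Ikbkg. Against MAL mice they measured -0.01 ± 0.12, -0.28 ± 0.12, and -0.01 ± 0.10. Map3k14, the kinase that opens the non-canonical pathway, measured -0.41 ± 0.16 against CON mice (adjusted p = 0.0433), below the fold threshold. Against MAL mice it measured -0.33 ± 0.15 (adjusted p = 0.0786) and missed both thresholds.

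Of 17 other inhibitors, 5 fell and 3 rose against CON mice (21.7% and 11.4% of all genes), and 4 fell and 2 rose against MAL mice (20.2% and 10.2%). Tnip3, a partner of A20, fell by 3.81 ± 0.44 on the log2 scale (SE, adjusted p = 1.55e-05), and Zc3h12a (Regnase-1, which degrades cytokine transcripts) fell by 1.79 ± 0.22 (adjusted p = 2.73e-05). The level of Tnip3 was low, at 7.755 to 18.7 CPM in CON and 0.371 to 1.609 CPM in MAL-BG mice. Nfkbid, a further nuclear IκB gene, fell by 0.93 ± 0.24 (adjusted p = 0.00549). Nfkbib, the IκBβ gene, fell by 0.62 ± 0.13 (adjusted p = 0.00112), a call held in 21 of 29 alternatives and lost where CON replicate 1 or MAL-BG replicate 2, 3, 4, or 7 was left out (-0.575 to -0.547), with both CON replicate 1 and MAL replicate 4 left out (-0.495), with the early-response sum as a covariate (-0.53), and with length and GC offsets and mean scaling (-0.36). It was not called against MAL mice (-0.23 ± 0.12). Against MAL mice, Nfkbid (-0.63 ± 0.23) was called lower in 18 of 29 alternatives, and not where MAL replicate 4 or 5 or MAL-BG replicate 1, 3, 4, 6, or 7 was left out (-0.61 to -0.49). With the early-response sum as a covariate, Nfkbid measured -0.52 against CON and -0.03 against MAL mice, and neither was called.

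Of 29 known target genes outside the 10 members, 15 fell and 5 rose against CON mice (21.7% and 11.4% of all genes), and 10 fell and 6 rose against MAL mice (20.2% and 10.2%). The median log2 fold change of the 29 genes was -0.82 and -0.41, beside -0.04 and -0.03 for all genes. The list was chosen with earlier results of these data known, so this contrast is a description only. Cxcl1, a neutrophil chemokine gene, fell from 19.1 ± 5.98 CPM in CON mice (SD, n = 4) to 1.25 ± 0.59 in MAL-BG mice (n = 7), with 6.00 ± 3.50 in MAL mice (n = 5), a log2 fold change of -3.93 ± 0.40 (SE, adjusted p = 6.02e-06) against CON. Gadd45b, a stress-response gene, fell by 2.90 ± 0.21 on the log2 scale against CON mice (adjusted p = 4.36e-07) and had a log2 fold change of -2.22 ± 0.20 against MAL mice. Cxcl2, Icam1, and Cd83, named here after their values were seen, fell in both comparisons (-2.44, -2.09, and -1.78 against CON). Lcn2, an iron-binding protein gene that neutrophils also express, rose by 4.94 ± 1.30 on the log2 scale against CON mice (adjusted p = 0.00566), from 1.03 to 8.26 CPM in CON to 9.98 to 704 CPM in MAL-BG mice. Its highest library was MAL-BG replicate 5, which also had the highest neutrophil sum (13330 CPM), and without it the rise was 3.29, which was still called. Ccl3, Ccl5, Ebi3, and Bcl2l1 were the other targets that rose against CON mice, by 0.80 to 1.16.

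**Figure D4:**
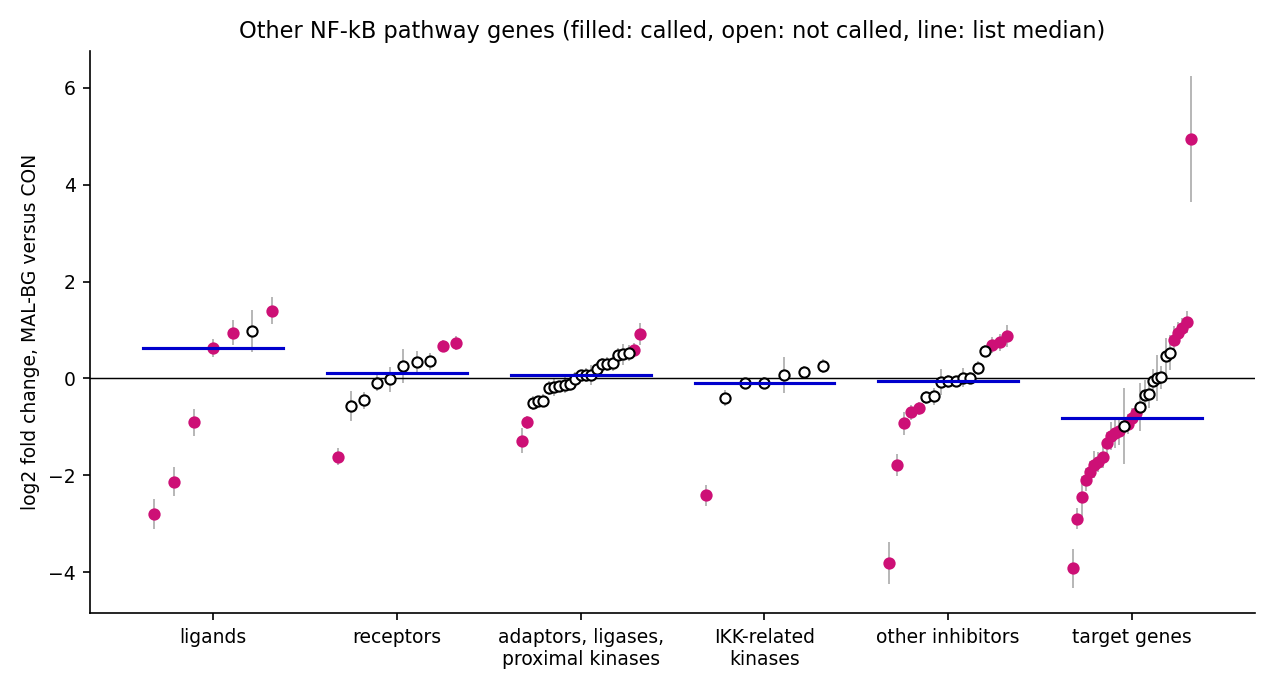
Log2 fold change with its standard error (y axis) of the 93 other pathway genes between MAL-BG and CON mice, grouped by role along the x axis and sorted within each group; filled points were called, open points were not, and lines mark list medians. Target genes have the lowest median (-0.82), the list around the IκB kinase complex holds 1 called gene (Map3k8, -2.42), and Lcn2 stands alone at 4.94.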

How the data were processed

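The CD11b+ cells of 16 mice were measured by stranded paired-end RNA-Seq of poly(A) RNA. Reads had been aligned to GRCm38 with STAR and assigned to genes with HTSeq by the authors, who deposited raw counts with no normalization. The counting mode, strand setting, and annotation are not given in the sources used here. Columns were assigned to groups by name, since their numbers match no sample title, and the batch term in the code of the study could not be fitted because no source names a library's batch. Libraries are numbered in column order. Each library is described as 1 mouse.

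Testing was limited to genes above 10 counts in 4 or more libraries and used edgeR 4.0.16 in R 4.3.3 (quasi-likelihood, TMM scaling, 3 groups in 1 fit) and Benjamini-Hochberg adjustment over all 14565 genes. CPM used TMM scaling, and levels between genes used GENCODE exon length. Scripts were tested on simulated data. Replicates differed by more than sampling noise (chi-square per degree of freedom of 10 or more). The members and lists were chosen with earlier results of these data known. Pathway genes named were the 3 largest called changes per list, with 8 fixed genes, and for each member the 3 most similar genes. Alternatives included DESeq2 1.42.0, other scaling, filters, and left-out libraries. Promoter sequences came from RefSeq, and 27 rows with names that look like dates were kept as they stand.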

Additional observations from a re-analysis of the deposited data

Results flagged for a closer look

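In groups of 4 to 7 libraries, a value was marked where its gap to the nearest other value took up most of the range of its group (Dixon's test). Of 129 groups tested, 21 held such a value, where chance alone marks about 1 in 20. Among the members, Rela reached 283.6 CPM in MAL-BG replicate 2, Tnfaip3 reached 1606 CPM in CON replicate 1, and Bcl3 reached 18.87 CPM in MAL replicate 5. Among other pathway genes, Nfkbid (200.2 CPM), Traf5 (54.29 CPM), and Ltbr (94.6 CPM) were high in CON replicate 1, and in CON replicate 4 Birc3 was low (64.72 CPM) and Il1b was high (301.6 CPM). Traf5 (61.97 CPM) and Ltb (14.26 CPM) were high in MAL replicate 4, and Tnip3 (11.63 CPM) was high in MAL replicate 5. Lcn2 (704.2 CPM) was high in MAL-BG replicate 5, and Chuk (104.0 CPM) was high in MAL-BG replicate 7. Of the summed marker levels, those of neutrophils (13330 CPM) and monocytes (1361 CPM) were high in MAL-BG replicate 5. Those of border macrophages (666.4 CPM) and lymphocytes (47.95 CPM) were high in MAL replicate 4, and that of neurons (413.8 CPM) was high in MAL replicate 5. Choroid plexus (16340 CPM) and neuronal (98.84 CPM) sums were high in MAL-BG replicate 3, and the early-response sum (31980 CPM) was high in CON replicate 1.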

How the results depend on the processing

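Results were recomputed under 29 alternatives, of which 26 were planned (16 leave out 1 library each) and 3 were chosen after seeing the data: MAL-BG replicates 3 and 5 left out, CON replicate 1 and MAL replicate 4 left out, and the summed early-response level as a covariate. Not all of these could remove a call, since dropping the fold threshold only loosens the rule. Leaving out a library of the group not compared left fold changes nearly as they were (Nfkb2 against CON, -1.028 without any 1 MAL replicate). Rel, Nfkbie, Nfkbiz, Tnfaip3, and Bcl3 were called lower in MAL-BG mice in 29 of 29 alternatives in both comparisons, as were Nfkbia and Nfkb2 against CON mice. Against MAL mice, Nfkbia was called in 28 and Nfkb2 in 22, and Nfkb2 missed the fold threshold with length and GC offsets (-0.56, and -0.34 with scaling by mean log2 CPM), the covariate (-0.50), and without CON replicate 1 and MAL replicate 4 (-0.55). The number of members higher against MAL mice was 1 with no fold threshold (Rela, 0.39) and 2 with the covariate (Rela, 0.71, and Relb, 0.59), and that of other pathway genes was 24 with the covariate, against 13. Nfkb1 turned direction against CON mice with offsets (0.26, and 0.51 with mean scaling, adjusted p = 0.0366, in a range of 0.0366 to 0.969), without CON replicate 1 and MAL replicate 4 (0.104), with the covariate (0.080), and without single libraries (range -0.139 to 0.064). Against MAL mice it turned to 0.20 and 0.43 with these offsets and to 0.075 with the covariate. Relb against CON mice ranged from -0.008 to 0.14 without single libraries. Nfkbia between MAL and CON mice turned to 0.017 with offsets and mean scaling, and ranged from -0.27 to 0.16 without single libraries. Offsets with mean scaling moved the median of all genes to 0.21 against CON and 0.20 against MAL mice. The cause of these shifts was not tested. No paired analysis was possible because the numbers in the column names match no sample title. Depth limits Rel and Bcl3 most, with as few as 54 and 101 counts in a library.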
